A study of Mus musculus with 15 samples.

Results

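Genes of DNA replication and mitosis were examined in regulatory T cells (Tregs), which express Foxp3 and damp the activity of other immune cells. The group holds 49 genes chosen by name, out of 45706 genes in the count table, and all 49 were found and were among the 18423 genes with enough counts to be tested. By role, 15 act in S phase, 24 in mitosis, and 10 are cyclins, a cyclin-dependent kinase or transcription factors that drive S phase, mitosis or both. Cdk1, Ccnb1 and Ccnb2 belong to these 10 and are not counted among the mitosis members below.

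Foxp3-positive T cells were sorted from adult reporter mice for bulk sequencing of messenger RNA. Mice of the line labelled RelB-dDC, called dDC here, were set against littermate controls without it, all on the C57BL/6 background and with no treatment named. The 15 libraries comprised 2 dDC and 2 control libraries from peritoneal cavity, 2 dDC and 3 control libraries from thymus, and 3 dDC and 3 control libraries from spleen. The labels spell out neither the allele behind the line's name nor the promoter of any Cre, and they do not say whether libraries of a group came from separate animals, so p-values measure the spread between these libraries, which may be technical.

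A dividing cell copies its DNA in S phase and parts the copies in mitosis. As textbook background, E2F transcription factors switch on the S phase genes once cyclin-dependent kinases release them from the retinoblastoma proteins, and the MuvB complex with B-Myb and FoxM1 switches on the mitotic genes later through a promoter element called the CHR. In resting cells the DREAM complex, which shares the MuvB core, holds these genes down. Tregs are known to divide more often in unchallenged mice than conventional helper T cells do.

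The promoters of S phase and mitosis members differed in the motifs they hold. The windows searched ran from 250 bases before to 50 bases after each RefSeq gene start in build GRCm38.p6, and 40 of the 49 genes matched, with 43 windows. No window was used for Aurkb, Ccna2, Ccne2, Foxm1, Kif20a, Mcm4, Smc4, Stmn1 and Tpx2. The CHR was searched as TTTGAA or TTCGAA on both strands, the second form being its own reverse complement, and stood in 16 of 19 windows of mitosis members (84.2%), in 3 of 16 windows of S phase members (18.8%) and in 19.2% of all 32851 windows in the table. The E2F site was searched as TTTCCCGC, TTTCGCGC, TTTGCCGC or TTTGGCGC on both strands, forms that can overlap one another, and stood in 7 of 16 S phase windows (43.8%), in 0 of 19 mitosis windows and in 2.26% of all windows. The box CCAAT, which neither of the other motifs contains, stood in 84.2% of mitosis windows, 81.2% of S phase windows and 37.4% of all windows, on either strand. The 8 windows of the other members held the CHR in 3 (37.5%), the E2F site in 2 (25%) and CCAAT in 5 (62.5%). Among them, the window of the mitotic cyclin Ccnb1 held no CHR match. A match is a description of the letters and not a measured binding site.

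Promoters of 6 members are printed to show both kinds: the kinase Cdk1, the proliferation marker Mki67, the topoisomerase Top2a and the spindle protein Hmmr for the CHR, and the helicase subunits Mcm5 and Mcm6 for E2F. Each runs 5′ to 3′ on the gene's strand from 250 bases before the start through the first 20 bases after it, from RefSeq build GRCm38.p6, and capitals mark CHR or E2F matches. Cdk1 is from chr10:69352893-69353162 on the minus strand, Mki67 from chr7:135716360-135716629 on the minus strand, Top2a from chr11:99024170-99024439 on the minus strand, Hmmr from chr11:40733418-40733687 on the minus strand, Mcm5 from chr8:75109259-75109528 on the plus strand and Mcm6 from chr1:128359686-128359955 on the minus strand.
Cdk1: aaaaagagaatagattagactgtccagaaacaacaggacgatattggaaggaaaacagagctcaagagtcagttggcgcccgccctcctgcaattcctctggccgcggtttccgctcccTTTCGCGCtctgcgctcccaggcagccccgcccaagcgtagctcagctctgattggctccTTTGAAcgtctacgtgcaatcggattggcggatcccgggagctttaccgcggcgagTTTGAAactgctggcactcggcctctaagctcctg
Mki67: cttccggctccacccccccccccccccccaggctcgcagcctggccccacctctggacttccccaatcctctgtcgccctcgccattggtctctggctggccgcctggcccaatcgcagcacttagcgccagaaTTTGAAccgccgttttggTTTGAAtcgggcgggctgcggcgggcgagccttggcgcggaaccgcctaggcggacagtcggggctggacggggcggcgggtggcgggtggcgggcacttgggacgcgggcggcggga
Top2a: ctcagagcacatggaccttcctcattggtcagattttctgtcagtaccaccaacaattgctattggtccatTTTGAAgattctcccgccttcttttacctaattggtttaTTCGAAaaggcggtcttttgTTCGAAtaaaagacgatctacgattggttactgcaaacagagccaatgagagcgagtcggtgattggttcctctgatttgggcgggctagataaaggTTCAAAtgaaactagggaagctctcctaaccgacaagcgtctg
Hmmr: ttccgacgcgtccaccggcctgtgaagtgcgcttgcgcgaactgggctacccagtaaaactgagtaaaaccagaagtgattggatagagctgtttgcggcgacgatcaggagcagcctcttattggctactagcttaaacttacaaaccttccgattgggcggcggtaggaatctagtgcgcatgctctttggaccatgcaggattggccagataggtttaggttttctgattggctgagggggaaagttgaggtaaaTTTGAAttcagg
Mcm5: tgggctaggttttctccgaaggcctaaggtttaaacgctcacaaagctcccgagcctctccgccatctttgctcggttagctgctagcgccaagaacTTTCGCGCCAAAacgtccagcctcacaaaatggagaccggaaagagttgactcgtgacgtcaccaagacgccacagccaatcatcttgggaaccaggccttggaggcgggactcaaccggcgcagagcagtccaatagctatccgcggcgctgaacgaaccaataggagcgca
Mcm6: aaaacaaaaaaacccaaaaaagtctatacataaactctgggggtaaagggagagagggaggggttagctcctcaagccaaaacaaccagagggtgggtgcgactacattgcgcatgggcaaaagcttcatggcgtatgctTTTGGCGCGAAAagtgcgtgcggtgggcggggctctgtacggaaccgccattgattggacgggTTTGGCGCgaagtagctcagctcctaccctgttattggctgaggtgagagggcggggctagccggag
Cdk1 held both kinds, with 2 CHR matches and 1 E2F match. Top2a held 4 CHR matches, Mki67 held 2, and Hmmr held 1 just after its start. The matches in Mcm5 and the first pair in Mcm6 were E2F forms on opposite strands that overlapped.

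Each library held between 15714286 and 24332044 counts, and levels below are TMM-scaled counts brought to the same total in every library (CPM). All 7 markers of Tregs and T cells (Foxp3, Cd4, Cd3e, Cd3g, Il2ra, Ctla4 and Ikzf2) had counts in every group. They summed to between 4266 and 4786 CPM in peritoneal controls, below every other library, to 5169 and 5972 CPM in peritoneal dDC libraries, and to between 5802 and 6683 CPM in thymus and spleen libraries. In controls edgeR called 3 of the 7 lower in peritoneal cavity than in thymus and 1 lower than in spleen. Markers of other cells differed by tissue as well. The 8 B cell markers summed to 1084 to 2250 CPM in peritoneal libraries, 42.9 to 89.2 CPM in thymus libraries and 345 to 1005 CPM in spleen libraries. The 7 erythroid markers counted summed to at most 399 CPM in peritoneal and thymus libraries and to between 2396 and 8056 CPM in spleen libraries. The 8 macrophage and dendritic markers summed to 1516 CPM in peritoneal control 2, against at most 363 CPM in any other library, and peritoneal control 2 was also the library with the fewest counts. The 8 markers of developing thymocytes summed to between 70.3 and 153 CPM in thymus libraries and to at most 122 CPM elsewhere, with the recombinase gene Rag1 and the transferase gene Dntt at 0 in all 4 peritoneal libraries. The part of these other cells in the results below was not tested, and in bulk RNA fewer dividing cells cannot be told apart from less RNA per dividing cell.

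Levels differed widely between members. Per kilobase of exon and averaged over the 6 groups, Smc4, a core subunit of the condensin complexes that fold chromosomes for mitosis, stood highest at 259 CPM per kilobase. It was followed by Mcm4 at 47.6, Pcna at 22.4, Mcm3 at 22.4, Rrm1 at 22.4 and Mcm5 at 20.9 CPM per kilobase, all of them S phase genes. The level of Smc4 per kilobase was 5.44 times that of Mcm4 and 22.1 times that of Smc2, its partner in both condensins, at 11.7. At the other end stood the transcription factor Foxm1 at 0.307 CPM per kilobase, the S and G2 phase cyclin Ccna2 at 0.326, the kinetochore protein Cenpf at 0.398 and the transcription factor Mybl2 (B-Myb) at 0.452. Of the activating E2F factors, E2f2 at 6.57 CPM per kilobase exceeded E2f1 at 0.631 by 10.4 times.

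Low counts were more frequent among mitosis members. Of the S phase members 12 of 15 stayed at or above 1 CPM in all 15 libraries, while the origin factor Cdc6 lay below it in 2 libraries and the helicase factor Cdc45 and the methylation reader Uhrf1 in 1 each. Among mitosis members 7 of 24 stayed at or above 1 CPM throughout, namely the mitotic entry factor Cdca3, the centromeric histone Cenpa, the microtubule protein Stmn1, Mki67, Top2a, Smc2 and Smc4. Among the other 10 it was 3, the cyclins of S phase entry Ccne1 and Ccne2 and the factor E2f2. At least 1 library with no count was seen for 17 members, 10 of them mitosis members. Aurora kinase B (Aurkb) was below 1 CPM in 8 libraries and had no count in 5. Libraries differed too, since 18 of the 49 members lay below 1 CPM in peritoneal control 2 and 13 in thymus dDC 1, against 1 to 9 in the other 13 libraries. The median biological coefficient of variation of the members was 0.696, against 0.551 over all tested genes.

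**Figure D1:**
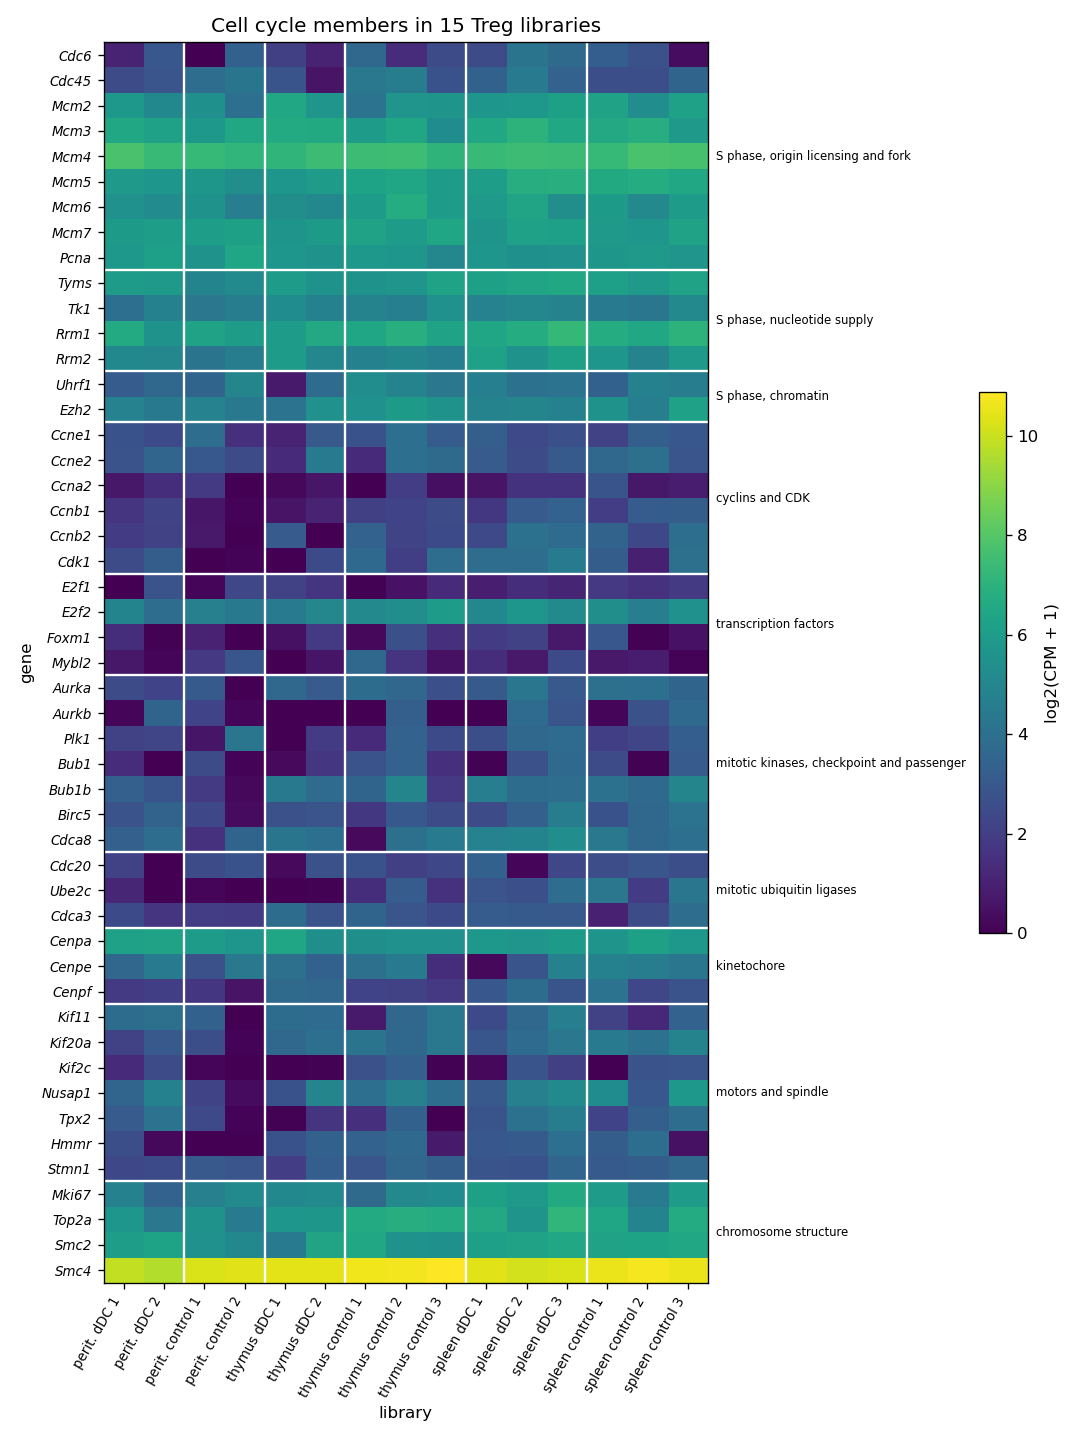
Level of each of the 49 members (down the page, by role) in each of the 15 libraries (across), coloured by log2(CPM + 1). Smc4 is the brightest gene in every library, most S phase genes at the top are visible in all libraries, and most mitotic genes are patchy, with dark cells frequent in peritoneal control 2, where 18 members were below 1 CPM.

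Exons of 11 members overlap a gene on the other strand, and the library chemistry named does not mark strand, so their counts are uncertain. These are Ccna2 with Exosc9, Ccne2 with Ints8, Cdc20 with Elovl1, Cdc45 with Ufd1, Cdca8 with 9930104L06Rik, Ezh2 with Gm26625, Kif20a with Cdc23, Mcm7 with Cops6 and Ap4m1, Nusap1 with Oip5, Tk1 with Afmid and Ube2c with Tnnc2, which had 0 counts over all libraries. Foxm1 shares exon bases with Tex52 on its own strand. The exons of Smc4 shared no base with another gene, although its introns hold the microRNA genes Mir15b and Mir16-2.

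The first question was whether the cell cycle genes differed between dDC and control Tregs. Averaged over the 3 tissues with equal weight, 0 of 49 members passed an adjusted p of 0.05 with edgeR's quasi-likelihood test, and 0.076% of all tested genes did. At an unadjusted p below 0.05 there were 6 members (12.2%), against 9.31% of all tested genes. The signs were balanced, with 23 members higher and 26 lower in dDC Tregs, and the median log2 difference of the members was -0.03, against -0.02 for all tested genes. DESeq2 called 2 members, Smc4 and Aurkb, both lower in dDC Tregs, against 2.5% of genes, and limma called Smc4 alone, against 0.114% of genes. By role, an unadjusted p below 0.05 was reached by 2 of 4 nucleotide supply genes (Rrm2 and Tyms, higher in dDC), 1 of 6 cyclins and CDK (Cdk1, higher), 1 of 3 kinetochore genes (Cenpf, higher), 1 of 7 motors and spindle genes (Hmmr, higher) and 1 of 4 chromosome structure genes (Smc4, lower). It was reached by 0 of 9 origin and fork genes, 0 of 2 chromatin genes, 0 of 4 transcription factors, 0 of 7 mitotic kinase and checkpoint genes and 0 of 3 ubiquitin ligase genes. The averages of Cdk1 and Hmmr drew on peritoneal controls, where Cdk1 had 0 and 1 count and Hmmr had none. Means of Cdk1, dDC against control, were 2.18 against 9.78 CPM in thymus and 16.3 against 8.22 CPM in spleen. Those of Hmmr were 7.61 against 7.57 CPM in thymus and 9.61 against 7.64 CPM in spleen.

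Smc4 had the smallest p of the members in that average, in peritoneal cavity and in spleen, and the third smallest in thymus. The gene is ENSMUSG00000034349 at chr3:69004738-69034623 on the plus strand in mm10. In peritoneal cavity it had 945 and 783 CPM in dDC libraries, against 1223 and 1354 CPM in control libraries. In thymus it had 1401 and 1388 CPM in dDC libraries, against 1602, 1661 and 1889 CPM in control libraries. In spleen it had 1361, 1135 and 1219 CPM in dDC libraries, against 1531, 1719 and 1501 CPM in control libraries. Each dDC library thus lay below every control library of its tissue, with no overlap in any of the 3. Of all tested genes, 34.1% did not overlap in peritoneal cavity, 19.4% in thymus and 10.1% in spleen, in either direction. The share without overlap in all 3 tissues was not counted. The mean and SD of Smc4 were 864 ± 115 (n = 2) against 1288 ± 92.7 CPM (n = 2) in peritoneal cavity, 1395 ± 9.38 (n = 2) against 1717 ± 152 CPM (n = 3) in thymus, and 1238 ± 114 (n = 3) against 1584 ± 118 CPM (n = 3) in spleen, dDC against control in each. The average difference was -0.41 on the log2 scale (SE 0.07), 1.33-fold lower in dDC Tregs, with an edgeR adjusted p of 0.056, which missed the threshold.

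That value sat at the edge of the threshold. It was passed with DESeq2's size factors in place of TMM (adjusted p 0.0476), with no filter on low counts (0.0272), with DESeq2 (1.12e-05), with limma (0.0335), without peritoneal dDC 1 (0.0407) and without peritoneal control 1 (0.0303) for Smc4, while leaving out each of the other 13 libraries gave adjusted p up to 0.218. By tissue, the log2 differences of Smc4 were -0.58 (SE 0.12, edgeR adjusted p 0.279) in peritoneal cavity, -0.30 (SE 0.11, adjusted p 0.748) in thymus and -0.35 (SE 0.10, adjusted p 1.0) in spleen. The dDC difference of Smc4 in peritoneal cavity minus that in spleen was -0.22 (SE 0.16), and minus that in thymus -0.28 (SE 0.17), and neither passed. Smc2 did not share the pattern. It had 65.5 and 79.7 CPM in peritoneal dDC libraries against 44.8 and 33.3 CPM in peritoneal controls, 21.3 and 80.5 CPM in thymus dDC libraries against 91.0, 47.4 and 43.7 CPM in thymus controls, and 70.4, 75.4 and 90.7 CPM in spleen dDC libraries against 76.1, 77.5 and 91.4 CPM in spleen controls. Its average difference was 0.20 (SE 0.26, edgeR adjusted p 0.922).

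Some other members had higher values in dDC Tregs, and others had lower ones. Rrm2, the subunit that limits the enzyme making DNA building blocks, had 32.8 and 32.2 CPM in peritoneal dDC libraries, against 16.97 and 23.6 CPM in peritoneal controls. In thymus Rrm2 had 61.5 and 31.4 CPM in dDC libraries, against 26.7, 30.7 and 25.3 CPM in controls, and in spleen it had 73.0, 45.8 and 72.4 CPM in dDC libraries, against 52.1, 28.6 and 56.6 CPM in controls. The groups were apart in peritoneal cavity and thymus and overlapped in spleen. Within each tissue Rrm2 exceeded the mean of the controls in all 7 dDC libraries, as did the helicase subunit Mcm3 and the chromosome passenger Cdca8, and none of these 3 passed the test. Their average log2 differences were 0.64 for Rrm2 (SE 0.20, edgeR adjusted p 0.353), 0.38 for Mcm3 (SE 0.20, adjusted p 0.600) and 0.78 for Cdca8 (SE 0.63, adjusted p 0.784). Tyms, which makes thymidylate, gave 0.36 (SE 0.14, adjusted p 0.453), with 6 of 7 dDC libraries above the control mean. The kinesin Kif11 also had 6 of 7 above it. In the other direction, Uhrf1, Ezh2, Ccne1 and Ccna2 each had 6 of 7 dDC libraries at or below that mean, and Smc4 had 7 of 7. The share of all tested genes with 6 or 7 dDC libraries on 1 side of that mean was not counted.

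The markers most used for dividing cells did not pass the test. Mki67, which coats mitotic chromosomes, had 26.7 and 9.72 CPM in peritoneal dDC libraries against 25.4 and 35.5 CPM in peritoneal controls, 32.6 and 36.0 CPM in thymus dDC libraries against 12.5, 33.9 and 38.3 CPM in thymus controls, and 70.8, 58.5 and 96.3 CPM in spleen dDC libraries against 64.4, 21.4 and 62.4 CPM in spleen controls. The ranges overlapped in every tissue, and its average difference was 0.05 (SE 0.33, edgeR adjusted p 1.0). Top2a, which untangles DNA, had 51.4 and 18.9 CPM in peritoneal dDC libraries against 45.7 and 20.6 CPM in peritoneal controls, 52.3 and 53.9 CPM in thymus dDC libraries against 100.1, 109.8 and 102 CPM in thymus controls, and 92.7, 48.7 and 144 CPM in spleen dDC libraries against 84.6, 29.2 and 104 CPM in spleen controls. Only the thymus groups of Top2a stood apart, and there the difference was -0.97 (SE 0.59, edgeR adjusted p 0.763). The sliding clamp Pcna had 54.6 and 69.1 CPM in peritoneal dDC libraries against 47.1 and 84.0 CPM in peritoneal controls, 51.2 and 46.7 CPM in thymus dDC libraries against 54.5, 52.1 and 31.9 CPM in thymus controls, and 51.1, 43.3 and 44.6 CPM in spleen dDC libraries against 53.6, 57.5 and 50.3 CPM in spleen controls, and the groups overlapped in peritoneal cavity, thymus and spleen alike. Foxm1 had 32 and 1 counts in peritoneal dDC libraries against 22 and 0 counts in peritoneal controls. In thymus it had 7 and 54 counts in dDC libraries against 3, 98 and 31 counts in controls. In spleen it had 53, 70 and 14 counts in dDC libraries against 119, 1 and 11 counts in controls. The groups of Foxm1 overlapped in every tissue too. Averaged over tissues, Pcna gave -0.07 (SE 0.16, adjusted p 0.988), Mcm5 gave -0.06 (SE 0.14, adjusted p 0.987), the mitotic cyclin Ccnb1 gave 0.29 (SE 0.52, adjusted p 0.966) and Foxm1 gave -0.03 (SE 1.23, adjusted p 1.0).

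**Figure D2:**
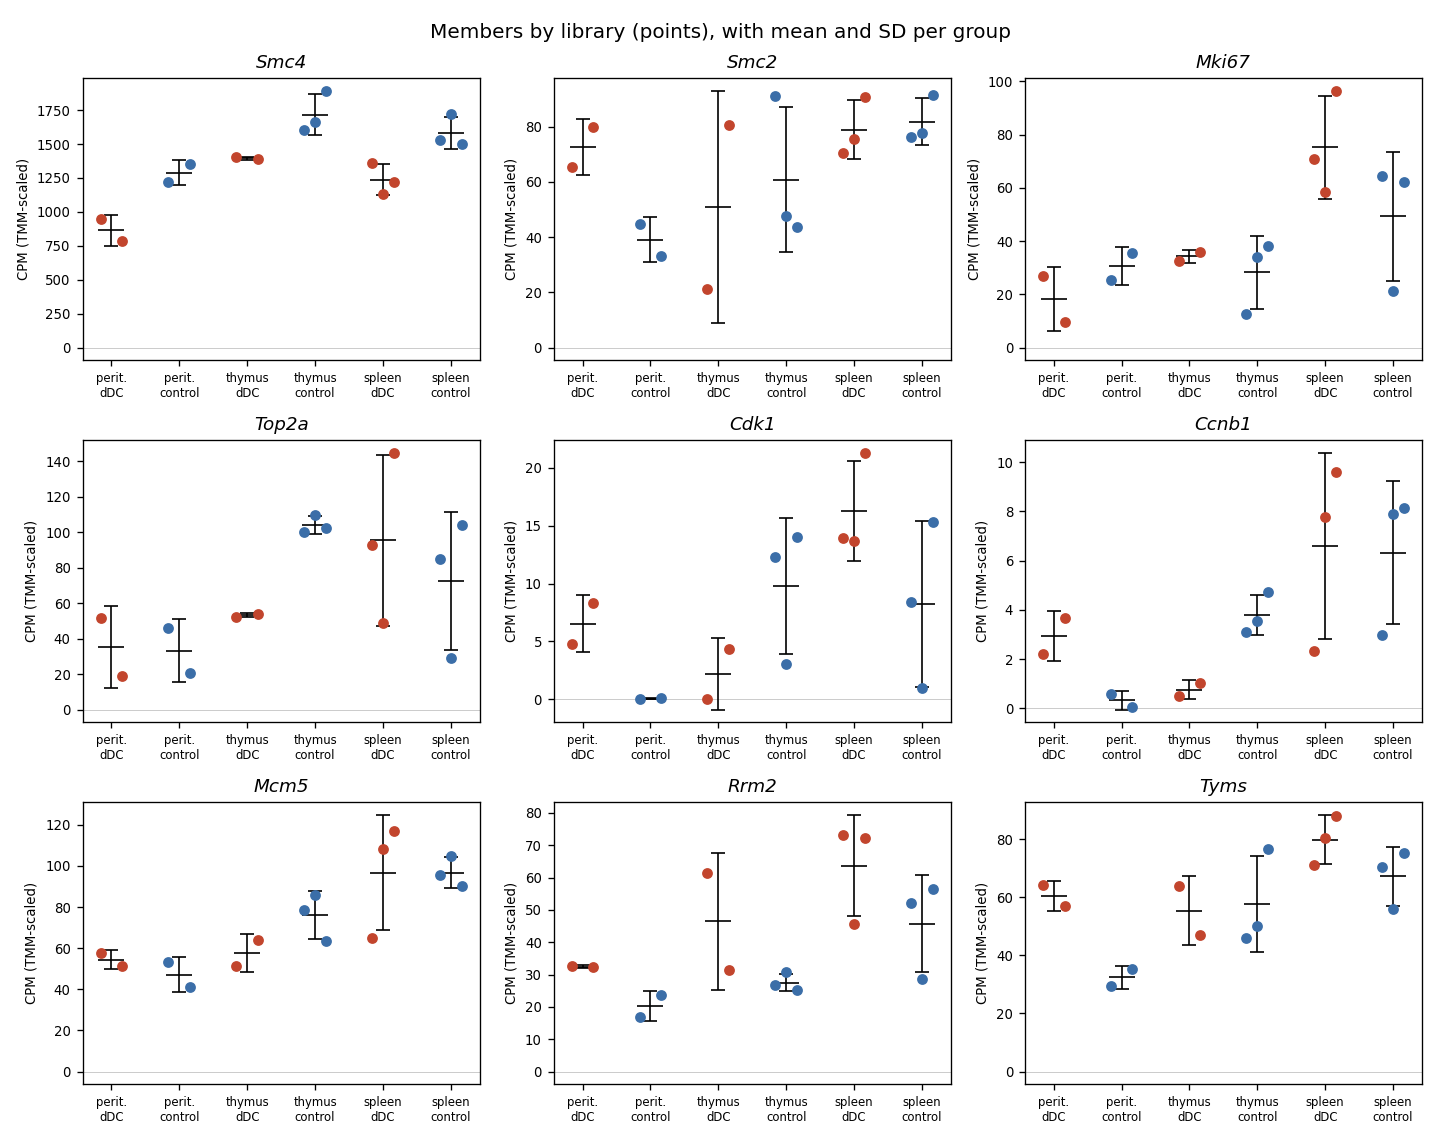
CPM (TMM-scaled, linear axis from 0) of 9 members in each library, with dDC in red and control in blue, and the mean and SD of each group as black bars. For Smc4 the dDC points lie below the control points of the same tissue in all 3 tissues; each of the other 8 members has at least 1 tissue in which dDC and control points overlap.

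Within single tissues, edgeR called no member in any of the 3 comparisons of dDC with control Tregs. In peritoneal cavity it called 0 members and 0.00543% of all genes, with 6 members at an unadjusted p below 0.05 against 6.36% of genes; DESeq2 called 3 members (Smc4 lower, Cdk1 and Hmmr higher in dDC) against 1.26% of genes, and limma called 0 against 0.0271%. In thymus it called 0 members and 0% of all genes, with 8 members at an unadjusted p below 0.05 against 6.57% of genes; DESeq2 called 2 (Aurkb and Ube2c, both lower in dDC) against 0.955%, and limma called 0 members and 0% of genes. In spleen it called 0 members and 0% of all genes, with 1 member (Smc4) at an unadjusted p below 0.05 against 4.27% of genes; DESeq2 called 0 members against 0.176% of genes, and limma called 0 against 0%.

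The members' signs and ranges are given here by tissue. In peritoneal Tregs 33 members were higher and 16 lower in dDC than in control libraries, with a median log2 difference of 0.32 against 0 over all genes. The 2 groups did not overlap for 22 members, 16 of them higher in dDC, against 34.1% of all genes without overlap and 18.7% higher without overlap. Treg and T cell markers moved the same way there: their sums were 5972 and 5169 CPM in peritoneal dDC libraries against 4786 and 4266 CPM in peritoneal controls, and 4 of the 7 were higher in dDC at an unadjusted p below 0.05. All 8 macrophage and dendritic markers were lower in peritoneal dDC than in control libraries, with sums of 134 and 238 CPM against 58.6 and 1516 CPM. In thymus 15 were higher and 34 lower, the median was -0.30 against -0.031 over all genes, and 13 members did not overlap, 9 of them lower in dDC, against 19.4% of genes without overlap and 10.3% lower without overlap. Markers of other cells were lower there too. In thymus dDC against control libraries, erythroid markers summed to at most 1.75 CPM against 3.16 to 399 CPM, with 7 of 7 lower, and macrophage and dendritic markers to at most 4.22 CPM against 3.28 to 26.6 CPM, with 7 of 8 lower. Of the 8 B cell markers 6 were lower, although their sums were 62.1 to 89.2 CPM in dDC against 42.9 to 70.4 CPM in control libraries, and 5 of the 6 tested markers of developing thymocytes were lower, with sums of 70.3 to 109 CPM against 104 to 153 CPM. The part of these markers in the thymus and peritoneal differences was not tested. In spleen 25 were higher and 24 lower, the median was 0.06 against -0.011, and 3 members did not overlap (Cdca8 higher, Smc4 and E2f1 lower in dDC), against 10.1% of genes.

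The peritoneal differences of several mitotic genes rested on few counts. Cdk1, the kinase that starts mitosis, had 4.79 and 8.28 CPM in peritoneal dDC libraries (93 and 149 counts) against 0 and 1 count in peritoneal controls, and it had 0 and 89 counts in thymus dDC libraries against 224, 56 and 244 counts in thymus controls. In spleen Cdk1 had 13.9, 13.7 and 21.3 CPM in dDC libraries, against 8.39, 0.959 and 15.3 CPM in controls. Hmmr, a spindle protein, had 98 and 3 counts in peritoneal dDC libraries and no count in either peritoneal control, where 3 counts, the floor used here, would be 0.168 CPM on average. Ccnb1 had 2.21 and 3.67 CPM in peritoneal dDC libraries against 0.587 and 0.0634 CPM in controls, and 0.493 and 1.03 CPM in thymus dDC libraries against 3.12, 3.54 and 4.71 CPM in thymus controls. The groups of Ccnb1 were apart in both tissues, in opposite directions. In spleen Ccnb1 had 2.35, 7.78 and 9.61 CPM in dDC libraries against 2.97, 7.90 and 8.12 CPM in controls, which overlapped. None of these passed edgeR's test within a tissue, with adjusted p between 0.544 and 0.748 for Cdk1, Hmmr and Ccnb1 where the groups stood apart. The spindle pole kinase Aurka had 4.63 and 3.56 CPM in peritoneal dDC libraries, against 7.58 CPM in peritoneal control 1 and no count in peritoneal control 2. The kinesin Kif20a had 3.24 and 7.11 CPM in peritoneal dDC libraries, against 5.09 CPM in peritoneal control 1 and 1 count in peritoneal control 2. The groups of both overlapped, and without peritoneal control 1 their differences rested on peritoneal control 2 alone.

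Tyms and Mcm6 stood apart in 1 tissue each. Tyms had 64.1 and 56.8 CPM in peritoneal dDC libraries, against 29.5 and 35.3 CPM in peritoneal controls, a difference of 0.90 (SE 0.27, edgeR adjusted p 0.548). Mcm6, a subunit of the replicative helicase, had 41.0 and 32.6 CPM in thymus dDC libraries, against 62.6, 107 and 63.1 CPM in thymus controls, a difference of -1.08 (SE 0.40, edgeR adjusted p 0.748). The groups did not overlap for either gene, and neither passed. In thymus the ubiquitin-conjugating enzyme Ube2c, which helps cells leave mitosis, had 0 and 1 count in dDC libraries against 31, 147 and 33 counts in controls (edgeR adjusted p 0.746). Aurkb had no count in either thymus dDC library and had 0, 163 and 0 counts in thymus controls, so the DESeq2 call of Aurkb in thymus rested on thymus control 2. Every other DESeq2 call of Aurkb also drew on the thymus dDC libraries without a count. In spleen the histone methyltransferase Ezh2 had 28.0, 29.9 and 26.9 CPM in dDC libraries, against 45.3, 24.5 and 73.2 CPM in controls, which overlapped (-0.75, SE 0.41, edgeR adjusted p 1.0).

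Whether the dDC difference itself differed between tissues was tested directly, and edgeR called 0 members in each of the 3 tests. For peritoneal cavity against thymus it called 0% of all genes, 6 members had an unadjusted p below 0.05 against 5.72% of genes, the difference was positive for 37 members and negative for 12, with a median of 0.61 against 0.079 over all genes, DESeq2 called 5 members (Aurkb, Cdk1, Ube2c, Kif2c and Ccnb1) against 0.685% of genes, and limma called 0 against 0%. For peritoneal cavity against spleen it called 0% of genes, the difference was positive for 30 members and negative for 19, with a median of 0.40 against 0.038, 5 members had an unadjusted p below 0.05 against 4.89%, DESeq2 called 0 against 0.351%, and limma called 0 against 0%. For thymus against spleen it called 0% of genes, the difference was positive for 18 members and negative for 31, with a median of -0.32 against -0.027, 4 members had an unadjusted p below 0.05 against 5.06%, DESeq2 called 1 (Aurkb) against 0.199%, and limma called 0 against 0%. Without peritoneal control 1, the values of Aurka and Kif20a in the tests with peritoneal cavity rested on peritoneal control 2 alone, with 0 and 1 count. The smallest edgeR adjusted p among members was 0.840, shared by Ube2c, Cdk1 and Ccnb1 in the first of these. Cdc45 and Mybl2 were among the 3 members with the smallest p for thymus against spleen. Cdc45 had 6.19 and 0.491 CPM in thymus dDC libraries against 19.4, 23.8 and 5.75 CPM in thymus controls, and 9.40, 20.9 and 9.57 CPM in spleen dDC libraries against 5.08, 5.13 and 10.3 CPM in spleen controls (difference of the log2 differences -3.25, SE 1.21, edgeR adjusted p 0.965). Without thymus dDC 1 the value of Cdc45 was -5.99, and without thymus dDC 2 it was -2.35. Mybl2 had 0 and 11 counts in thymus dDC libraries against 208, 39 and 7 counts in thymus controls, and 32, 14 and 90 counts in spleen dDC libraries against 12, 14 and 2 counts in spleen controls (edgeR adjusted p 0.965). For peritoneal cavity against spleen Nusap1, which crosslinks spindle microtubules, had 207 and 477 counts in peritoneal dDC libraries against 77 and 4 counts in peritoneal controls, and 137, 518 and 734 counts in spleen dDC libraries against 679, 120 and 1289 counts in spleen controls (3.72, SE 1.56, edgeR adjusted p 0.998). Without peritoneal control 1 the value of Nusap1 was 6.70, and without peritoneal control 2 it was 2.83 and without peritoneal dDC 2 2.93. Both groups of Nusap1 overlapped in spleen and were apart in peritoneal cavity.

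The second question was how the tissues differed, and here most members had lower values in peritoneal Tregs. In controls 42 of 49 members were lower in peritoneal cavity than in spleen, with a median log2 difference of -0.95 against -0.029 over all genes, and 41 were lower than in thymus, with a median of -0.69 against -0.03. In dDC mice 42 were lower in peritoneal cavity than in spleen, with a median of -0.81 against -0.009, while against thymus 24 were lower and 25 higher, with a median of 0.07 against 0.022. These comparisons share libraries, and genes of one program are not independent replicates. Summed over the members without Smc4, peritoneal libraries held 1205 and 1081 CPM in dDC mice and 969 and 931 CPM in controls, thymus libraries held 1131 and 1226 CPM in dDC mice and 1217 to 1509 CPM in controls, and spleen libraries held 1358 to 1811 CPM in dDC mice and 1295 to 1718 CPM in controls. Every peritoneal sum lay below every spleen sum. With Smc4, which alone supplied 783 to 1889 CPM, the sums were 1864 to 2284 CPM in peritoneal, 2533 to 3170 CPM in thymus and 2700 to 3219 CPM in spleen libraries. Markers moved with these differences. In peritoneal against spleen controls 6 of the 7 Treg and T cell markers were lower, with a median log2 difference of -0.47, and against thymus 5 of the 7 were lower, with a median of -0.34. In dDC mice 6 of the 7 were lower against spleen and 5 against thymus, with a median of -0.15 in each. B cell markers were highest in peritoneal and erythroid markers in spleen libraries, as given above, and the part of any of these in the members' differences was not tested.

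Gene by gene, none of these members passed the adjusted threshold with edgeR in 3 of the 4 peritoneal comparisons. In peritoneal against spleen controls edgeR called 0 members and 0.792% of all genes, 16 members (32.7%) had an unadjusted p below 0.05, all lower in peritoneal cavity, against 10.6% of genes in either direction and 6.16% lower, DESeq2 called 12 members, all lower, against 4.94%, and limma called 0 against 0.689%. In peritoneal against thymus controls edgeR called 0 members and 2.47% of genes, 15 members (30.6%) had an unadjusted p below 0.05, all lower in peritoneal cavity, against 14.1% in either direction and 6.96% lower, DESeq2 called 12, all lower, against 8.95%, and limma called 0 against 2.59%. In peritoneal against spleen dDC libraries edgeR called 0 members and 0.906% of genes, 7 members (14.3%) had an unadjusted p below 0.05, all lower, against 8.64% in either direction and 3.95% lower, DESeq2 called 2 (Smc4 and Mki67, both lower) against 3.72%, and limma called 0 against 1.21%.

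**Figure D3:**
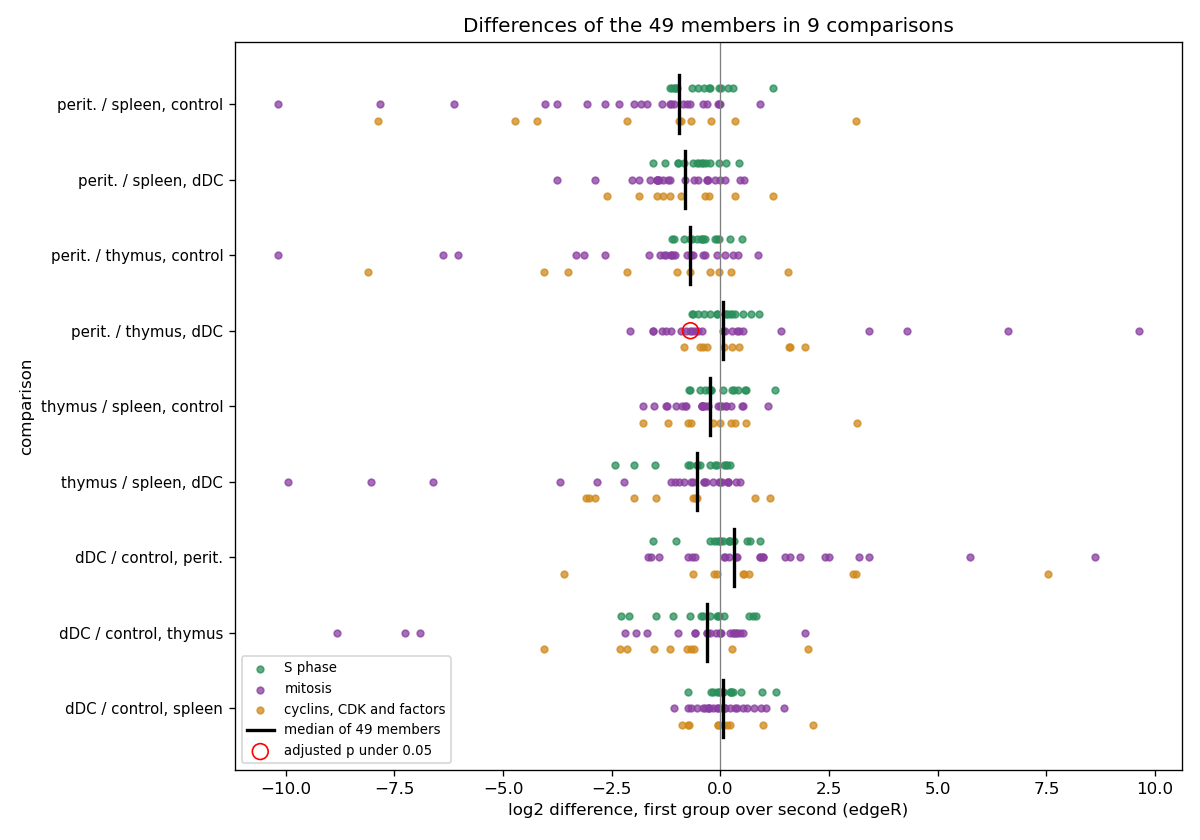
Log2 difference of each member (edgeR, first group over second) in 9 comparisons, coloured by role, with the median of the 49 members as a black bar and members past an adjusted p of 0.05 ringed in red. The medians lie left of 0 for peritoneal cavity against spleen, at -0.95 in controls and -0.81 in dDC mice, and the single ring is Smc4 in peritoneal cavity against thymus of dDC mice.

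By role, the medians of the mitosis members lay further below 0 than those of the S phase members. In peritoneal against spleen controls the median was -1.25 over 24 mitosis members, 23 of them lower, and -0.37 over 15 S phase members, 11 of them lower. In peritoneal against thymus controls the medians were -1.10 for mitosis and -0.42 for S phase members. The 7 genes of motors and spindle were all lower in peritoneal controls than in spleen controls. Of them 4 had an unadjusted edgeR p below 0.05, against 6.16% of all genes lower at that p. These were the crosslinker Nusap1, Hmmr and the kinesins Kif20a and Kif2c. Their counts in peritoneal controls 1 and 2 were 77 and 4, 0 and 0, 104 and 1, and 2 and 0, in that order. All 4 nucleotide supply genes, Tyms, Tk1, Rrm1 and Rrm2, were lower there too. Since many mitotic genes had few counts in peritoneal controls, their fitted differences are imprecise and are not given as folds.

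Tyms and Mcm5 had the smallest p of these members against spleen in controls. Tyms had 29.5 and 35.3 CPM in peritoneal controls, against 46.1, 50.2 and 76.5 CPM in thymus controls and 70.5, 55.9 and 75.3 CPM in spleen controls. The peritoneal controls lay below all others, with a log2 difference of -1.05 against spleen (SE 0.25, edgeR adjusted p 0.0944). Mcm5 had 53.2 and 41.0 CPM in peritoneal controls, against 78.8, 86.1 and 63.4 CPM in thymus controls and 95.7, 105 and 90.1 CPM in spleen controls. In dDC libraries Mcm5 had 57.7 and 51.1 CPM in peritoneal cavity, against 51.1 and 64.2 CPM in thymus and 64.8, 108 and 117 CPM in spleen. Peritoneal and spleen groups of Mcm5 did not overlap in either genotype, and the log2 differences were -1.04 in controls (SE 0.26, edgeR adjusted p 0.109) and -0.83 in dDC mice (SE 0.25, adjusted p 0.245). Without spleen dDC 1 the difference of Mcm5 in controls passed, with an adjusted p of 0.0469.

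Mitotic genes gave larger differences with larger errors. Mki67 in dDC libraries had 26.7 and 9.72 CPM in peritoneal cavity, against 70.8, 58.5 and 96.3 CPM in spleen, a log2 difference of -2.04 (SE 0.61, edgeR adjusted p 0.227), and the groups did not overlap. Without peritoneal dDC 1 the value of Mki67 was -2.95, and without peritoneal dDC 2 it was -1.49. In controls Mki67 had 25.4 and 35.5 CPM in peritoneal cavity against 64.4, 21.4 and 62.4 CPM in spleen, which overlapped through spleen control 2. The mitotic cyclin Ccnb1 had 0.587 and 0.0634 CPM in peritoneal controls, against 2.97, 7.90 and 8.12 CPM in spleen controls, with no overlap and an edgeR adjusted p of 0.133. Cdk1 in controls, with 0 and 1 count in peritoneal cavity, had an edgeR adjusted p of 0.0920 against thymus, and it passed when either thymus dDC 1 (0.0240) or thymus dDC 2 (0.0246) was left out or when no filter on low counts was used (0.0362). Hmmr gave an adjusted p of 0.0855 against thymus in controls and 0.0327 with no filter. Leaving out peritoneal control 1, which leaves only the library with the most members below 1 CPM, made edgeR call 2 members, Aurka and Kif20a, lower in peritoneal controls against each of the other tissues. Aurka had 7.58 CPM in peritoneal control 1 and no count in peritoneal control 2.

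With TMM scaling and the filter on low counts, Smc4 was the only member that edgeR called in any comparison of all libraries, and it fell in peritoneal against thymus Tregs of dDC mice. It had 945 and 783 CPM in peritoneal dDC libraries, against 1401 and 1388 CPM in thymus dDC libraries, with no overlap. The log2 difference was -0.69 (SE 0.13), 1.61-fold lower in peritoneal cavity, with an edgeR adjusted p of 0.0189, and 1.35% of all genes were called in that comparison. At an unadjusted p below 0.05 there were 3 members (6.12%), against 11.3% of genes. DESeq2 called 2 members, Smc4 lower and Aurkb higher in peritoneal cavity, against 6.33% of genes, and limma called Smc4 alone, against 1.47%. Aurkb had 2 and 186 counts in peritoneal dDC libraries and no count in either thymus dDC library, so its call rested on peritoneal dDC 2. Next by p in that comparison were Cenpf, with 50 and 55 counts in peritoneal dDC libraries against 233 and 224 counts in thymus dDC libraries (-2.07, SE 0.85, edgeR adjusted p 0.371), and the kinesin Kif2c, with 30 and 85 counts against 0 and 1 count (adjusted p 0.411). The edgeR call of Smc4 was lost when only the 2 groups were fitted (adjusted p 0.252), without thymus dDC 1 (0.122), without thymus dDC 2 (0.0503) and without peritoneal dDC 2 (0.201).

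The same gene was lower in peritoneal cavity in the other tissue comparisons, without passing. Against thymus in controls Smc4 had a log2 difference of -0.41 (SE 0.11, edgeR adjusted p 0.0942), against spleen in dDC mice -0.52 (SE 0.12, adjusted p 0.0679) and against spleen in controls -0.30 (SE 0.11, adjusted p 0.366), and the groups did not overlap in any of the 3. Between thymus and spleen Smc4 differed by 0.12 in controls (SE 0.10, adjusted p 0.831) and 0.17 in dDC mice (SE 0.11, adjusted p 0.748). In order of the group means, Smc4 stood at 864 CPM in peritoneal dDC, 1238 in spleen dDC, 1288 in peritoneal control, 1395 in thymus dDC, 1584 in spleen control and 1717 CPM in thymus control libraries. The spleen dDC and peritoneal control ranges overlapped, as did the spleen control and thymus control ranges, and the other neighbours in that order did not.

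Smc4 held most of the reads of the mitosis members, so ratios of the mitosis to the S phase sum are given with and without it. The ratio of summed mitosis to summed S phase CPM was 1.52 and 1.6 in peritoneal dDC libraries against 2.22 and 2.26 in peritoneal controls, 2.25 and 2.24 in thymus dDC libraries against 2.22 to 2.93 in thymus controls, and 1.57 to 2.08 in spleen dDC libraries against 2.05 to 2.39 in spleen controls. Without Smc4, a step added after the values were seen, the same ratio was 0.383 and 0.479 in peritoneal dDC libraries against 0.377 and 0.296 in peritoneal controls, 0.424 and 0.470 against 0.449 to 0.481 in thymus, and 0.444 to 0.684 against 0.416 to 0.585 in spleen, dDC against control.

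Between thymus and spleen no member passed. In controls 31 members were lower and 18 higher in thymus, with a median of -0.25 against -0.002 over all genes; edgeR called 0 members and 0.603% of genes, 2 members (Rrm2 and Cenpf, both lower in thymus) had an unadjusted p below 0.05 against 9.79%, DESeq2 called 0 against 3.67%, and limma called 0 against 0.586%. In dDC mice 37 were lower and 12 higher, with a median of -0.55 against -0.024; edgeR called 0 members and 0.179% of genes, 4 members had an unadjusted p below 0.05 against 7.75%, DESeq2 called 3 (Aurkb, Ube2c and Ccnb1, all lower in thymus) against 2.59%, and limma called 0 against 0.119%. Rrm2 had 26.7, 30.7 and 25.3 CPM in thymus controls, against 52.1, 28.6 and 56.6 CPM in spleen controls, which overlapped through spleen control 2 (log2 difference -0.73, SE 0.32, edgeR adjusted p 0.488). Cenpf, which sits on the outer kinetochore, had 3.50, 3.27 and 2.47 CPM in thymus controls, against 16.8, 4.01 and 5.85 CPM in spleen controls, without overlap (-1.53, SE 0.69, edgeR adjusted p 0.503), a value of Cenpf that was -0.68 without spleen control 1. In dDC mice Ube2c had 0 and 1 count in thymus libraries against 119, 105 and 281 counts in spleen libraries, without overlap (edgeR adjusted p 0.286). Aurkb had no count in either thymus dDC library, against 0, 262 and 131 counts in spleen dDC libraries, which overlapped.

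Beyond the 49 members, 7 lists of other cell cycle genes were counted: inhibitors of cyclin-dependent kinases, D cyclins with their kinases and the retinoblastoma family, other E2F and DREAM subunits, quiescence genes, growth entry genes, and further replication and mitosis genes. Of their 114 genes 112 were tested. None passed edgeR's test between dDC and control Tregs, and in the average over tissues 10 genes, 4 higher and 6 lower in dDC, had an unadjusted p below 0.05, against 9.31% of all tested genes; the smallest was that of Foxp1, a factor that keeps T cells quiescent, at -0.52 (adjusted p 0.156). Between tissues 4 genes passed: Cdkn1b, Klf2 and Cdc25b were higher in peritoneal Tregs and Ccnd2 was lower. By comparison these were 2 of 112 genes in peritoneal against spleen controls (0.792% of all genes), 3 in peritoneal against thymus controls (2.47%), 1 in peritoneal against spleen dDC libraries (0.906%) and 1 in peritoneal against thymus dDC libraries (1.35%). In all but the first of these comparisons the share of the listed genes was near or below that of all genes. None of the further replication genes passed in any comparison.

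Cdkn1b encodes p27, an inhibitor of cyclin-dependent kinases that marks resting cells (ENSMUSG00000003031, chr6:134920401-134925513, plus strand, mm10). It had 527 and 507 CPM in peritoneal dDC libraries, against 314 and 352 CPM in thymus dDC libraries and 270.1, 304 and 240.0 CPM in spleen dDC libraries. In controls Cdkn1b had 470 and 399 CPM in peritoneal cavity, against 375, 299 and 425 CPM in thymus and 229, 235 and 268 CPM in spleen. Every peritoneal library lay above every spleen library. Against spleen it rose 1.90-fold in dDC mice (log2 0.93, SE 0.15, edgeR adjusted p 0.0173) and 1.78-fold in controls (log2 0.83, SE 0.15, adjusted p 0.0344); against thymus it did not pass in either genotype (adjusted p 0.116 in dDC mice and 0.507 in controls). The dDC call was lost without spleen dDC 1 (0.0625), spleen dDC 3 (0.0796), peritoneal dDC 1 (0.115) or peritoneal dDC 2 (0.121), and with only the 2 groups fitted (0.0671). The control call of Cdkn1b was lost with only the 2 groups fitted (0.222), without peritoneal control 1 (0.0991) or 2 (0.102), without spleen control 1 (0.115), 2 (0.0974) or 3 (0.0577), and without thymus control 1 (0.0515), spleen dDC 1 (0.0530), peritoneal dDC 1 (0.0524) or peritoneal dDC 2 (0.0521).

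Klf2, a transcription factor of resting and recirculating T cells (ENSMUSG00000055148, chr8:72319033-72321656, plus strand, mm10), had 127 and 204 CPM in peritoneal controls, against 70.7, 60.8 and 59.6 CPM in thymus controls and 46.7, 67.2 and 57.4 CPM in spleen controls. It rose 2.90-fold against spleen (log2 1.53, SE 0.27, edgeR adjusted p 0.0281) and 2.60-fold against thymus (log2 1.38, SE 0.27, adjusted p 0.0223), and peritoneal control 2, the library with the highest macrophage markers, was the higher of the pair. Without peritoneal control 2 the values of Klf2 were 1.15 (adjusted p 0.306) and 0.99 (adjusted p 0.240). The call against spleen was also lost without spleen control 1 (0.106), 2 (0.0519) or 3 (0.0899) and with only the 2 groups (0.242), and that against thymus without thymus control 1 (0.0522), 2 (0.0709) or 3 (0.0799) and with only the 2 groups (0.111). In dDC libraries Klf2 had 110.3 and 150.1 CPM in peritoneal cavity, against 58.9 and 65.5 CPM in thymus and 66.5, 74.6 and 41.4 CPM in spleen, apart as in controls, with adjusted p of 0.116 against spleen and 0.148 against thymus.

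Cdc25b, a phosphatase that activates Cdk1 at the entry to mitosis (ENSMUSG00000027330, chr2:131186949-131198497, plus strand, mm10), had 372 and 457 CPM in peritoneal dDC libraries, against 76.6 and 95.2 CPM in thymus dDC libraries and 111, 124 and 159 CPM in spleen dDC libraries. In controls it had 243 and 204 CPM in peritoneal cavity, against 68.8, 85.0 and 49.9 CPM in thymus and 59.0, 110.3 and 174 CPM in spleen. All 4 peritoneal libraries stood above all others. Against thymus Cdc25b rose 4.83-fold in dDC mice (log2 2.27, SE 0.41, edgeR adjusted p 0.0196) and 3.29-fold in controls (log2 1.72, SE 0.36, adjusted p 0.0273). The dDC call was lost without thymus dDC 1 (0.206), thymus dDC 2 (0.0616), peritoneal dDC 1 (0.0533) or peritoneal dDC 2 (0.120) and with only the 2 groups (0.0762), and the control call without thymus control 1 (0.0825), thymus control 3 (0.0982), peritoneal control 1 (0.0830) or peritoneal control 2 (0.0996) and with only the 2 groups (0.0752). Against spleen the log2 differences were 1.66 in dDC mice (SE 0.36, adjusted p 0.0592) and 0.96 in controls (SE 0.36, adjusted p 0.340). The B cell markers, at 1084 to 2250 CPM in peritoneal and 42.9 to 89.2 CPM in thymus libraries, moved with Cdc25b, and their part in its difference was not tested.

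Ccnd2, the D cyclin that starts the cycle in stimulated lymphocytes (ENSMUSG00000000184, chr6:127125162-127152193, minus strand, mm10), had 629 and 609 CPM in peritoneal controls, against 1246, 1127 and 1246 CPM in thymus controls and 935, 616 and 982 CPM in spleen controls. It fell 1.95-fold in peritoneal against thymus controls (log2 -0.96, SE 0.16, edgeR adjusted p 0.00865), with no overlap, a call lost without peritoneal control 2 (0.0996). In dDC libraries Ccnd2 had 800.0 and 813 CPM in peritoneal cavity, against 1061 and 1118 CPM in thymus and 840.4, 931 and 822 CPM in spleen, and the peritoneal difference from thymus was -0.43 (SE 0.17, adjusted p 0.347). The difference between the 2 genotypes in that contrast, tested directly, was 0.53 (SE 0.23, adjusted p 0.840).

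**Figure D4:**
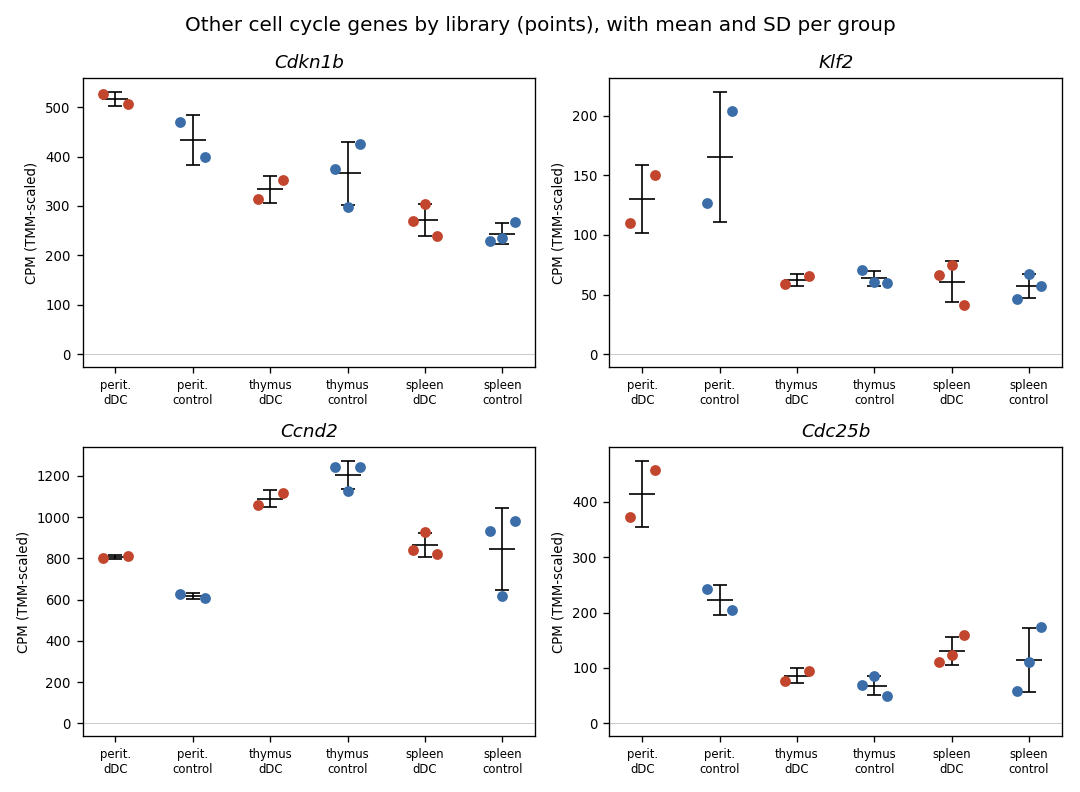
CPM (TMM-scaled, linear axis from 0) of Cdkn1b, Klf2, Ccnd2 and Cdc25b in each library, with dDC in red, control in blue and the mean and SD of each group as black bars. Every peritoneal library lies above every spleen library for Cdkn1b and above all others for Klf2 and Cdc25b, and the thymus libraries stand highest for Ccnd2, at 1061 to 1246 CPM.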

How the data were processed

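Messenger RNA of sorted Tregs was measured in 15 libraries, grouped by tissue and genotype from each library's own label. Per the labels' protocols, cDNA was made from a poly-dT primer by template switching and libraries with a chemistry that does not mark strand. Molecular identifiers are not mentioned there, and reads of 1 molecule can be counted repeatedly. Tools named in the submitters' processing notes are bcl2fastq 2.19.1, GSNAP and featureCounts 1.6.0, with genome build mm10. For strand and multi-mapping, the settings were not given in the sources used.

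The authors deposited raw counts of reads per gene and library, with Ensembl identifiers and mm10 coordinates. Of 45798 features, 92 spike-ins were left out. Symbols from GENCODE M21 names were found for 45143 of 45706 genes (98.8%). Among genes above a minimum summed count in a pair of libraries, at most 0.27% had the same count in both.

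The counts were filtered with filterByExpr and fitted with edgeR 4.0.16 (R 4.3.3) as quasi-likelihood models with TMM factors and robust moderation, 1 mean per group, all 15 libraries and 9 residual degrees of freedom. The 18423 genes tested held 99.93% of the counts. Tests were two-sided, with Benjamini-Hochberg adjustment over all tested genes and a threshold of 0.05, and every SE is the log2 difference divided by the root of its F statistic. There were 13 comparisons. Alternatives were DESeq2 size factors, no filter, DESeq2 1.42.0, limma 3.58.1 with voom, only the 2 groups compared, and leaving out each library; values without Smc4 were added after the data were seen.

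All members are accounted for by role. Values per library are given by rule for members past the threshold, or the 3 with the smallest p. For Hmmr and Ube2c they are not given in every group. They are always given for Mki67, Top2a, Cdk1, Ccnb1, Mcm5, Pcna, Rrm2 and Foxm1. Other genes were counted by list. Smc2, Mcm3, Cdca8, Aurka, Aurkb and Kif20a fall outside that rule where their values are given and were chosen after those values were seen. The members and lists were chosen with earlier results of these data known. A value of 0 is read against a floor of 3 counts, which covers counting error only.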

Additional observations from a re-analysis of the deposited data

How the results depend on the processing

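The number of members called was recomputed under each alternative. DESeq2 gave more calls: 2 in the dDC average, 2 in thymus and 3 in peritoneal cavity for dDC against control, 12 each for peritoneal cavity against spleen and against thymus in controls, 3 for thymus against spleen and 2 each for peritoneal cavity against spleen and against thymus in dDC mice, and 1 and 5 for the differences of the dDC effect between thymus and spleen and between peritoneal cavity and thymus. In the dDC average, DESeq2 size factors, no filter and limma each gave 1 call, and no filter gave 2 for peritoneal cavity against thymus in controls. With only the 2 groups fitted, peritoneal cavity against thymus in dDC mice gave 0 calls. The cause of these shifts was not tested.

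Leaving out each library in turn gave 0 to 1 calls in the dDC average, 0 to 2 in peritoneal cavity, 0 to 2 for peritoneal cavity against spleen in controls, 0 to 2 against thymus in controls, 0 to 1 against thymus in dDC mice, 0 to 2 for the difference of the dDC effect between peritoneal cavity and spleen and 0 to 1 between peritoneal cavity and thymus; the other 6 comparisons stayed at 0. Where a group was left with 1 library, that library was assumed to vary like the others. None of the recomputed differences of genes named by rule changed sign in any alternative run. No paired analysis was made because the labels number each library on its own and give the groups no shared replicate number. The label numbers alternate between control and dDC in peritoneal cavity and spleen, but the labels do not say whether neighbours are pairs.

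Limits: with 2 or 3 libraries a group and a median coefficient of variation of 0.696 for the members, small differences of mitotic genes could not be resolved. The fewest counts and the most members below 1 CPM were both in peritoneal control 2.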
